A study of Mus musculus with 21 samples.

Results

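Dark zone germinal centre B cells that had lost PTBP1 were compared with dark zone cells of control mice. The comparison took every library labelled as dark zone, 4 from control and 4 from conditional knockout (cKO) mice, which are 8 of the 21 libraries of the series. Libraries of the 2 genotypes were paired by the replicate number in their titles, which marks the day of sorting, and all genes were examined. Control mice had the genotype CD79a+/+Ptbp1fl/fl and cKO mice CD79acre/+Ptbp1fl/fl, so both carried loxP-flanked Ptbp1 alleles and only cKO mice carried Cre recombinase, in 1 allele of the B cell gene Cd79a. No group of Cre carriers with intact Ptbp1 was used here, so effects of Cre or of the altered Cd79a allele cannot be told apart from those of PTBP1 loss. All mice were of strain C57BL/6 and had received the antigen NP-KLH in alum 7 days before their splenic cells were sorted. Cells of 3 to 5 mice that shared genotype and sex were combined for each library, with males on days 1 and 2 and females on days 3 and 4. No age is stated for the mice.

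The polypyrimidine tract binding protein PTBP1 attaches to RNA stretches rich in C and U and acts mainly as a repressor of exon inclusion, with further roles in RNA stability and translation. It keeps its close relative PTBP2 low by promoting exon skipping in Ptbp2 RNA, which sends that RNA to nonsense-mediated decay. In the germinal centre dark zone, B cells divide rapidly and mutate their antibody genes before they move to the light zone to be selected. The series title asks whether PTBP1 is needed for that selection. RNA of sorted cells was counted per gene, so the values below are transcript levels and say nothing of exon use.

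Gene counts summed to between 27900368 and 33181658 per dark zone library. Levels are given as CPM, counts scaled to library size. The labelled zone matched its markers, measured on 1 scale over the light and dark zone libraries. Cxcr4, the receptor that retains cells in the dark zone, was 82.1 ± 5.48 CPM (SD, n = 4) in dark zone control and 38.4 ± 4.28 CPM in light zone control libraries, and the light zone marker Cd83 was 371 ± 20.5 against 1499.8 ± 104 CPM. Summed over 10 B cell genes, Cd79a among them, the level was 20934 to 24067 CPM in the control and 18608 to 22483 CPM in cKO libraries. Over 9 germinal centre B cell genes it was 4159 to 4547 CPM in the control and 3687 to 4318 CPM in cKO libraries. Within sort days, cKO was higher than control on 1 day for the B cell sum and on 0 days for the germinal centre sum. Plasma cell genes summed to 4657 to 10656 CPM in the control and 3973 to 14063 CPM in cKO libraries, so they were not below the germinal centre sum. Sums over genes of the other cell types examined were lower. All are given beside the results they touch.

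Ptbp1 RNA was low in every cKO library. Levels were 414, 423, 445 and 482 CPM in control libraries 1 to 4 and 114, 99.7, 106 and 91.4 CPM in cKO libraries 1 to 4. The groups were far apart, and the cKO mean was 23.3% of the control mean. The fitted log2 fold change (cKO over control, paired by day) was -2.10 ± 0.10 (SE), with an adjusted p of 0.00136 in edgeR's quasi-likelihood test with Benjamini-Hochberg (BH) adjustment over all genes. In bulk libraries, fewer cells that carry the transcript cannot be told apart from less of it per cell. Counts per gene also do not separate intact transcripts from those that lack the deleted exons, whose position no label states.

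Ptbp2, the paralogue that is normally restricted to neurons and a few other tissues, rose in every cKO library. It stood at 14.7, 19.2, 13.98 and 15.8 CPM in control libraries, against 194, 181, 288 and 194 CPM in the cKO libraries. Every cKO library was thus above all control libraries, and the cKO library of day 3 stood above the other 3. The log2 fold change was 3.73 ± 0.19, a 13.3-fold rise (edgeR adjusted p = 0.00136). Ptbp3, the paralogue expressed in blood cells, was 431, 442, 418 and 487 CPM in control libraries, against 441, 344, 426 and 357 CPM in the cKO libraries. Those groups overlapped, the difference changed sign between days, and the log2 fold change of -0.19 ± 0.11 did not pass (edgeR adjusted p = 0.469).

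**Figure D1:**
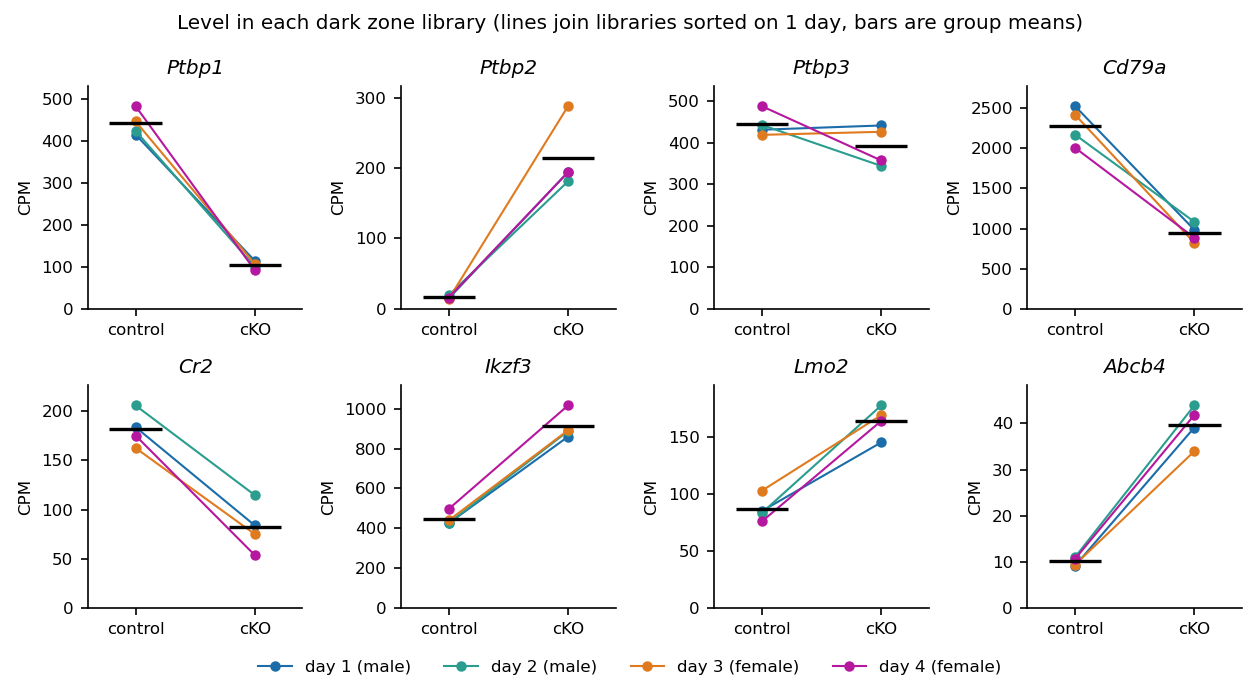
Level in CPM (vertical axes, linear from 0) of 8 genes in the control and cKO dark zone libraries. Lines join the libraries sorted on 1 day and black bars are group means, n = 4 each. The groups do not overlap for Ptbp1, Ptbp2, Cd79a, Cr2, Ikzf3, Lmo2 and Abcb4, and they overlap for Ptbp3.

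Few transcripts passed the test across the genome. Of 14550 genes tested, 45 passed a BH-adjusted p under 0.05, which is 0.309% of genes tested. Of these, 33 were higher in cKO cells (0.227%) and 12 were lower (0.0825%). All 45 differed in 1 direction on all 4 sort days. At least 2-fold changes made up 28 of the rises and 7 of the falls. Control and cKO libraries did not overlap for 23 of the 33 risen genes and for 12 of the 12 fallen genes. Over all genes tested, all 4 cKO libraries lay above all 4 control libraries for 3.38% and below them for 3.31%. Unadjusted p was under 0.05 for 2104 of the 14550 genes, and DESeq2 with pairing called 927 of the 14550. Counts of these 2 kinds given for gene lists below are to be read beside these totals. The number of calls depended strongly on the fit: without pairing by day it was 29 higher and 23 lower, with 22 of the 45 genes called again, and in a fit of all 16 light and dark zone libraries without pairing it was 49 higher and 50 lower. Leaving out the libraries of any 1 day left between 2 and 12 calls, and 5, 8, 5 and 2 of the 45 genes were called again without days 1, 2, 3 and 4. Ptbp1 and Ptbp2 were called with each of the 4 days left out.

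**Figure D2:**
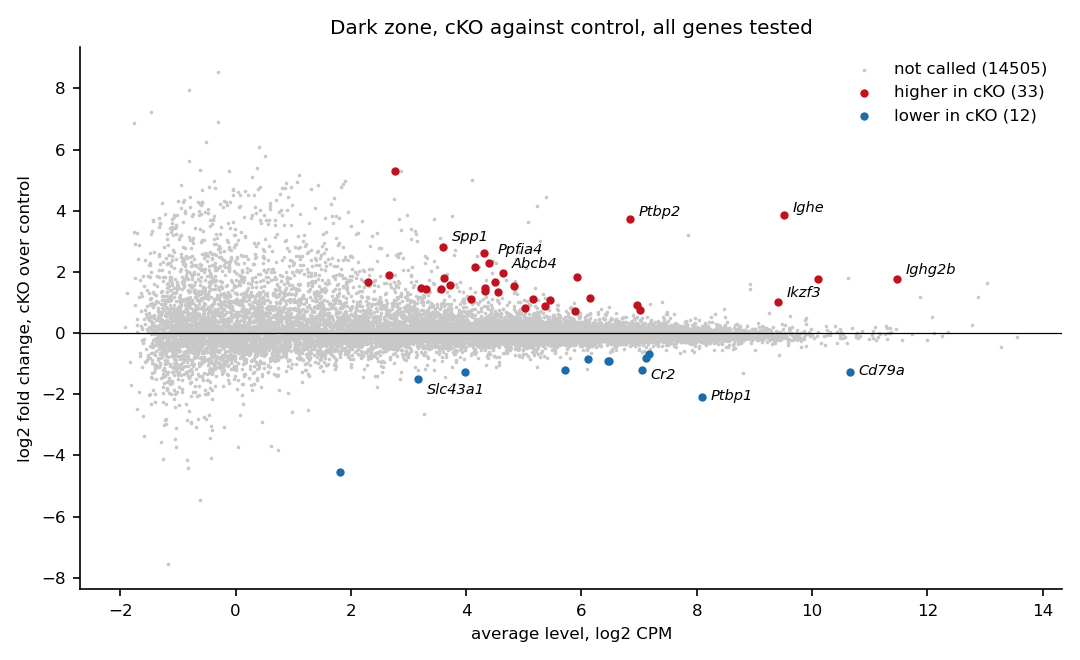
Fitted log2 fold change (cKO over control, vertical axis) against average level in log2 CPM (horizontal axis) for the 14550 genes tested in the dark zone. Red points are the 33 genes called higher, blue points the 12 called lower and grey points all others. The called genes with the highest average level are Ighg2b, Cd79a and Ighg2c.

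Among the genes that fell were a chain of the B cell receptor complex and a part of its coreceptor. Cd79a, the signalling chain Ig-alpha, was 2525, 2169.8, 2418 and 2006 CPM in control libraries, against 983, 1083, 822 and 885 CPM in the cKO libraries. The groups did not overlap, and cKO cells held 41.4% of the control mean (log2 fold change -1.27 ± 0.10, edgeR adjusted p = 0.0144). Since the Cre gene sits in 1 Cd79a allele of the cKO mice only, loss of a functional allele and PTBP1 loss cannot be told apart for this gene. Its partner chain Cd79b was 2255 ± 131 against 2025 ± 287 CPM and did not pass (log2 fold change -0.16, edgeR adjusted p = 0.549).

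Cr2, which encodes complement receptor CD21 of the B cell coreceptor, was 184, 206, 163 and 175 CPM in control libraries. The cKO libraries held 83.9, 115, 75.1 and 53.6 CPM, all below the lowest control. The log2 fold change was -1.20 ± 0.14 (edgeR adjusted p = 0.033, or 0.0554 without the pairing by day). In the list of 15 receptor and coreceptor genes, Cd79a and Cr2 were the 2 called in edgeR and both were lower, against 0.309% of all genes called. An unadjusted p under 0.05 was found for 8 members and DESeq2 called 6, against 2104 and 927 of all 14550 genes. The median log2 fold change of the list was -0.0042, against 0.0061 over all genes tested, and it changed sign under 9 of the 15 other settings, RLE scaling and the fit without pairing among them.

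Other genes that fell have unrelated textbook roles. Slc43a1, a transporter of large neutral amino acids, was 10.8, 13.3, 15.03 and 13.7 CPM in control libraries, against 4.51, 5.12, 5.18 and 3.90 CPM in the cKO libraries (log2 fold change -1.49 ± 0.18, edgeR adjusted p = 0.0374). Fah, the last enzyme of tyrosine breakdown, was 16.7, 20.8, 29.5 and 21.3 CPM in control libraries, against 4.93, 9.56, 12.8 and 10.2 CPM in the cKO libraries (-1.28 ± 0.17, edgeR adjusted p = 0.0478, or 0.16 without the pairing). Galnt12, which starts O-linked glycan chains on proteins, was 70.0, 69.5, 74.97 and 78.0 CPM in control libraries, against 43.2, 30.2, 23.9 and 31.6 CPM in the cKO libraries (-1.21 ± 0.16, edgeR adjusted p = 0.0477). Each of these genes was lower in all 4 cKO libraries than in any control library.

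The remaining falls, an immunoglobulin segment apart, were under 2-fold. Twsg1, a secreted modulator of bone morphogenetic protein signals, went from 116 ± 12.7 to 61.7 ± 4.32 CPM, and Cd2ap, an adaptor between membrane receptors and actin, from 115 ± 3.30 to 61.7 ± 7.03 CPM. Ppp2r1b, a scaffold subunit of protein phosphatase 2A, went from 89.4 ± 2.68 to 49.7 ± 5.67 CPM. Necap2, a protein of clathrin-coated vesicles, went from 176 ± 11.0 to 102 ± 15.9 CPM, and Slc28a2, a nucleoside transporter, from 178 ± 12.2 to 112 ± 13.9 CPM. Their log2 fold changes ran from -0.91 for Twsg1 to -0.68 for Slc28a2, with edgeR adjusted p between 0.0291 and 0.0498. None of these genes had overlapping groups. The remaining call among the falls was an immunoglobulin kappa variable segment, Igkv1-99, at 6.62 ± 5.90 against 0.252 ± 0.222 CPM (log2 fold change -4.54 ± 0.40, edgeR adjusted p = 0.0214).

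Transcription factors of the B lineage were among the rises. Ikzf3 encodes Aiolos, a zinc finger factor of lymphocytes related to Ikaros. It was 426, 427, 439.7 and 497 CPM in control libraries, against 859.9, 888, 892 and 1017 CPM in the cKO libraries, with no overlap. The difference was nearly the same on each day, 1.01, 1.06, 1.02 and 1.03 log2 units on days 1 to 4, and the fitted value was 1.03 ± 0.06 (edgeR adjusted p = 0.00327). Ikzf1, which encodes Ikaros itself, was 332 ± 35.6 against 377 ± 25.7 CPM and did not pass (edgeR adjusted p = 0.386).

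Lmo2, an adaptor of transcription factor complexes that is typical of germinal centre B cells, was 85.1, 83.5, 103 and 76.0 CPM in control libraries, against 145, 178, 169 and 164 CPM in the cKO libraries. The groups did not overlap (log2 fold change 0.92 ± 0.10, edgeR adjusted p = 0.0291). Zeb2, a zinc finger repressor found in several B cell and myeloid states, was 11.8, 10.0, 10.1 and 10.2 CPM in control libraries, against 42.6, 43.2, 27.8 and 24.9 CPM in the cKO libraries. Its 2 highest values came from days 1 and 2 (log2 fold change 1.68 ± 0.17, edgeR adjusted p = 0.0277). The summed macrophage genes given below were also highest in these 2 cKO libraries (623 and 1345 CPM). The part of myeloid cells in the Zeb2 values was not tested.

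Several genes of transport, metabolism and the cytoskeleton rose without overlap between groups. Abcb4, a phospholipid transporter best known from bile, was 9.17, 11.0, 9.40 and 10.7 CPM in control libraries, against 39.1, 43.9, 34.0 and 41.8 CPM in the cKO libraries. That 3.94-fold rise was even across days (log2 fold change 1.98 ± 0.12, edgeR adjusted p = 0.00314). Ppfia4, a liprin-alpha scaffold protein studied at synapses, was 10.9, 5.99, 6.48 and 5.47 CPM in control libraries, against 38.0, 37.4, 22.6 and 41.5 CPM in the cKO libraries (2.29 ± 0.23, edgeR adjusted p = 0.0277). Ass1, which makes argininosuccinate for arginine synthesis, was 6.34 ± 0.732 against 17.1 ± 1.52 CPM (1.43 ± 0.18, edgeR adjusted p = 0.04).

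Fscn1, the actin-bundling protein fascin, went from 11.3 ± 3.05 to 28.8 ± 4.48 CPM (log2 fold change 1.38 ± 0.15, edgeR adjusted p = 0.0291). Rasa4, a GTPase-activating protein of Ras, was 6.05, 6.76, 2.39 and 4.82 CPM in control libraries, against 18.1, 15.2, 7.64 and 13.2 CPM in the cKO libraries. Ppp1r12b, a regulatory subunit of myosin phosphatase, was 8.11, 3.98, 3.73 and 5.40 CPM in control libraries, against 20.2, 12.6, 9.97 and 14.4 CPM in the cKO libraries. For Rasa4 and Ppp1r12b the levels shifted between days in both genotypes, and the calls (edgeR adjusted p = 0.0374 and 0.0309) were lost without the pairing (0.187 and 0.128).

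Receptors that place B cells within the follicle also rose. Gpr183, the oxysterol receptor EBI2 that draws B cells towards outer follicular regions, was 23.7, 25.9, 25.2 and 19.5 CPM in control libraries, against 40.0, 47.0, 46.3 and 32.3 CPM in the cKO libraries (log2 fold change 0.81 ± 0.10, edgeR adjusted p = 0.0477, or 0.0697 without the pairing). Itga4, an integrin subunit for adhesion to vascular and stromal ligands, was 31.8, 56.0, 52.6 and 38.4 CPM in control libraries, against 61.0, 87.6, 85.9 and 60.0 CPM in the cKO libraries (0.73 ± 0.10, edgeR adjusted p = 0.0477, or 0.246 without the pairing). In both cases all cKO libraries lay above all control libraries. Of 26 migration and adhesion genes tested, these were the 2 called in edgeR, against 0.309% of all genes, with 13 at an unadjusted p under 0.05 and 11 called by DESeq2, and the median log2 fold change was 0.13. S1pr2, which confines B cells to the germinal centre, was 604 ± 47.0 against 641 ± 78.0 CPM (edgeR adjusted p = 0.695).

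**Figure D3:**
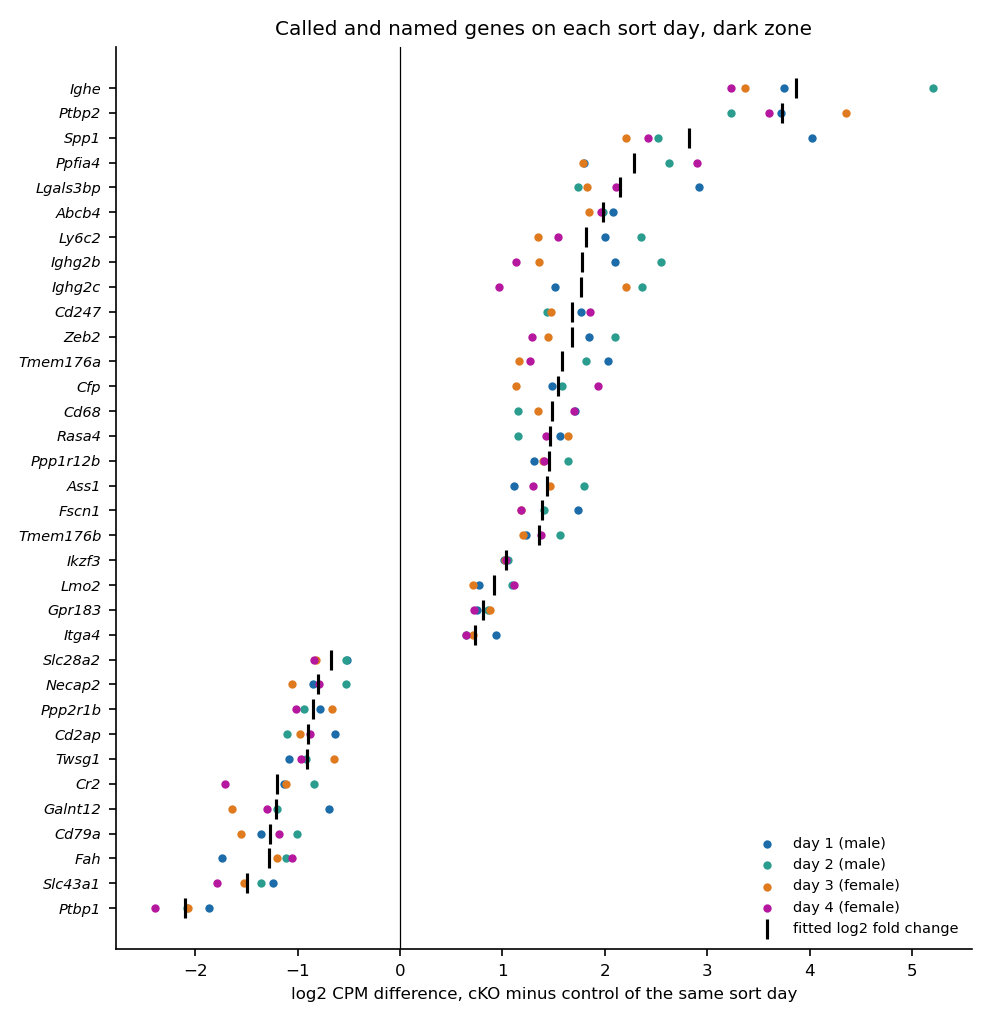
Difference in log2 CPM between the cKO and control library of the same sort day (horizontal axis) for each called gene that is described, with 1 point a day and a black tick for the fitted log2 fold change. All points of a gene lie on 1 side of 0. Points for Ikzf3 and Abcb4 lie close together, whereas those for Ighe, Spp1 and Ptbp2 spread over more than 1 log2 unit.

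The heavy chain constant region genes Ighe, Ighg2b and Ighg2c rose, from levels that differed widely between days. Ighe, the constant region of IgE, was 31.7, 27.6, 340.0 and 47.9 CPM in control libraries, against 429, 1024, 3519 and 451 CPM in the cKO libraries (log2 fold change 3.87 ± 0.35, edgeR adjusted p = 0.0277). Even the lowest cKO library was above the control library of day 3, which stood far above the other controls. Ighg2b was 309.6, 1154, 2864 and 974 CPM in control libraries, against 1324, 6735, 7343 and 2129 CPM in the cKO libraries, with overlapping groups (1.78 ± 0.24, edgeR adjusted p = 0.0498). Ighg2c had group means of 407 ± 374 and 1795 ± 1899 CPM (1.77 ± 0.23, edgeR adjusted p = 0.0498). In the light zone the fitted change of Ighg2c was -0.27 (edgeR adjusted p = 0.827). All 3 calls were lost without the pairing (edgeR adjusted p = 0.336, 0.51 and 0.586). Ighg1 and Igha, with log2 fold changes of 1.65 and 1.81, did not pass in either fit (paired edgeR adjusted p = 0.0579 and 0.0976). The IgG constant regions are near-identical in parts, so reads may be shared between them.

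Plasma cell genes varied with the sort day in a similar way. The sum over 16 of them was 4664, 4982, 10656 and 4657 CPM in control libraries, against 3973, 11216, 14063 and 5017 CPM in the cKO libraries. It was high on day 3 in both genotypes, and on day 2 in cKO cells only. Sdc1, the plasma cell surface proteoglycan CD138, was 7.14, 16.2, 68.3 and 14.6 CPM in control libraries, against 16.4, 82.2, 106 and 20.9 CPM in the cKO libraries (edgeR adjusted p = 0.167). Jchain, which joins antibody polymers, was 2232, 2557, 6560.3 and 2157 CPM in control libraries, against 1969, 7508, 9321 and 2460.3 CPM in the cKO libraries (edgeR adjusted p = 0.445). Of the 16 genes, 0 were called (edgeR, with 5 at an unadjusted p under 0.05 and 4 called by DESeq2), and their median log2 fold change was 0.41. On day 1 the plasma cell sum was lower in cKO than in control cells. The log2 difference on that day was -0.18 for Jchain, 1.19 for Sdc1 and 3.75 for Ighe. The part of plasma cells in the immunoglobulin results was not tested.

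Ly6c2, Tmem176a and Tmem176b, also called higher, were likewise highest on day 3 and next highest on day 2 in both genotypes. Ly6c2, a surface protein of monocytes and some lymphocytes and plasma cells, was 7.95, 28.4, 66.4 and 8.35 CPM in control libraries, against 32.1, 146, 169 and 24.5 CPM in the cKO libraries (log2 fold change 1.82 ± 0.18, edgeR adjusted p = 0.0277). Tmem176b, a membrane protein of myeloid cells, was 7.11, 13.1, 27.5 and 5.71 CPM in control libraries, against 16.8, 38.9, 63.2 and 15.04 CPM in the cKO libraries (1.35 ± 0.13, edgeR adjusted p = 0.0277). The groups overlapped for both, and without the pairing the adjusted p was 0.574 and 0.542. Tmem176a (1.58 ± 0.20, edgeR adjusted p = 0.0477, or 0.563 without the pairing) lies on the opposite strand within Tmem176b in the RefSeq annotation, and no label states whether counting used strand, so their reads cannot be told apart.

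Macrophage genes were higher in cKO libraries on 4 of 4 days. The sum over 20 of them was 30.4, 461.9, 27.5 and 60.8 CPM in control libraries, against 623, 1345, 61.4 and 465 CPM in the cKO libraries. Of 19 that could be tested, 15 were higher in cKO cells on all 4 days, against 12.9% of all genes tested. In edgeR 1 was called, Cd68, against 0.309% of all genes, with 17 at an unadjusted p under 0.05 and 13 called by DESeq2. Lyz2 (lysozyme) was 8.54, 298, 2.85 and 19.0 CPM in control libraries, against 400.0, 876, 12.3 and 236 CPM in the cKO libraries, with overlapping groups (edgeR adjusted p = 0.136). The complement genes C1qa, C1qb and C1qc were at 0 in the control library of day 1, and no macrophage gene of the list was at 0 in all 8 libraries. Sums over natural killer cell genes ran from 13.0 to 184 CPM in the control and from 96.8 to 249 CPM in cKO libraries. For dendritic cell genes the ranges were 231 to 342 and 381 to 584 CPM, for T cell genes 138 to 370.0 and 135 to 378 CPM, and for neutrophil genes 2.40 to 70.7 and 50.7 to 92.3 CPM. Erythroid genes ran from 98.2 to 158 and 141 to 213 CPM, and platelet and megakaryocyte genes from 47.1 to 84.9 and 33.6 to 46.9 CPM. Stromal and follicular dendritic cell genes ran from 75.5 to 85.6 and 66.5 to 112 CPM. Within sort days, cKO was higher on 4 days for the erythroid and on 0 days for the platelet sum. Of the natural killer cell genes 9 of 12 tested, of the T cell genes 13 of 18, of the dendritic cell genes 5 of 11 and of the neutrophil genes 0 of 9 were higher on all 4 days. Genes could enter the test through counts in 1 group alone, so the counts for these lists and the macrophage list describe them and do not test them. The neutrophil gene Ly6g was at 0 in 7 of the 8 libraries.

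**Figure D4:**
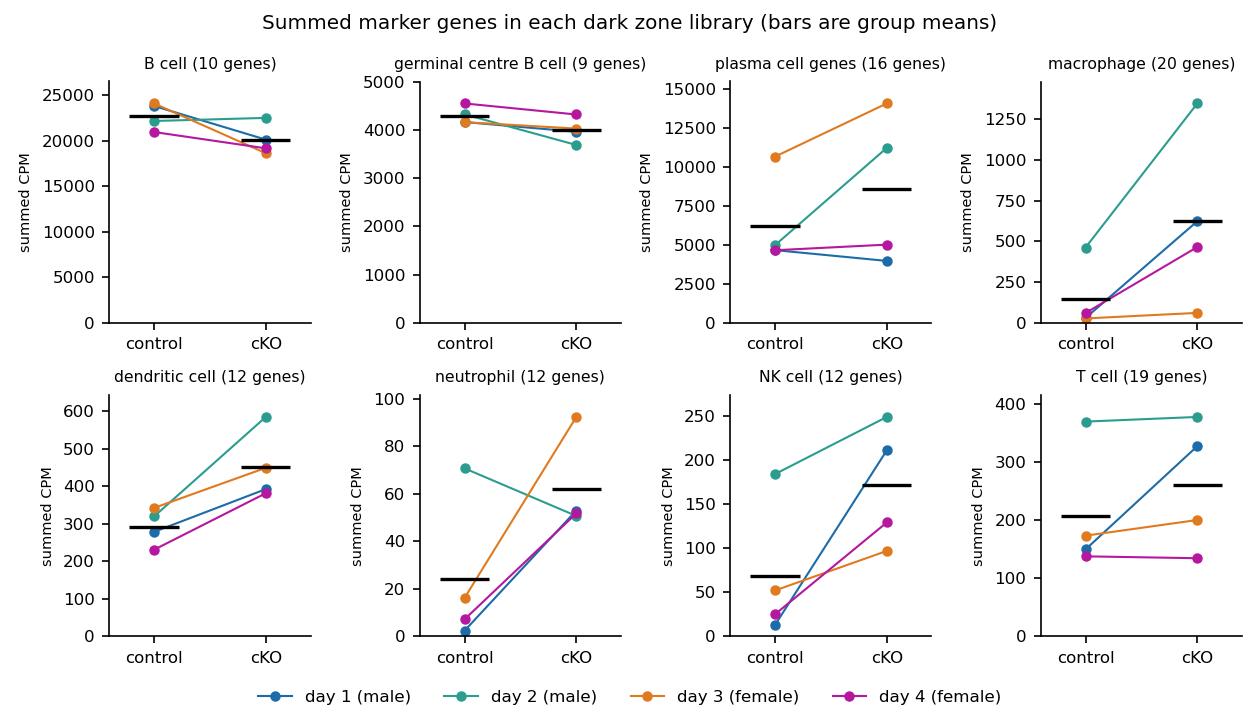
Summed level in CPM (vertical axes, linear from 0) of marker genes of B cells, germinal centre B cells, plasma cells and 5 other cell types in each dark zone library. Lines join libraries of 1 sort day and black bars are group means, n = 4 each. B cell sums overlap between groups and are higher in cKO on 1 day, and germinal centre B cell sums on 0 days. Macrophage sums are higher in cKO on each day, and plasma cell sums are high on day 3 in both groups.

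Some called genes are known from myeloid or T cells, and their values can be set beside those sums. Cd68, a lysosomal protein of macrophages, was 7.76, 20.6, 9.10 and 6.66 CPM in control libraries, against 25.5, 45.9, 23.3 and 21.9 CPM in the cKO libraries (log2 fold change 1.48 ± 0.15, edgeR adjusted p = 0.0277). Spp1, the secreted protein osteopontin, was 1.43, 6.24, 2.85 and 1.69 CPM in control libraries, against 24.8, 36.2, 13.5 and 9.47 CPM in the cKO libraries (2.82 ± 0.33, edgeR adjusted p = 0.033). Lgals3bp, a secreted galectin ligand, was 2.96, 12.3, 8.88 and 4.05 CPM in control libraries, against 23.0, 41.1, 31.6 and 17.9 CPM in the cKO libraries (2.15 ± 0.23, edgeR adjusted p = 0.0291). On days 1 to 4 the median difference of the macrophage genes, Cd68 among them, was 4.42, 1.54, 1.34 and 2.50 log2 units. Over the same days Cd68 differed by 1.70, 1.16, 1.34 and 1.70, Spp1 by 4.02, 2.52, 2.20 and 2.42, and Lgals3bp by 2.92, 1.74, 1.82 and 2.11 log2 units.

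Cfp, the complement regulator properdin, was 11.8, 18.7, 17.1 and 11.0 CPM in control libraries, against 33.1, 56.2, 37.7 and 42.4 CPM in the cKO libraries (log2 fold change 1.54 ± 0.15, edgeR adjusted p = 0.0277). Cd247, the zeta chain of the T cell receptor complex, was 2.21, 4.37, 1.67 and 1.20 CPM in control libraries, against 7.80, 12.0, 4.83 and 4.59 CPM in the cKO libraries (1.68 ± 0.23, edgeR adjusted p = 0.0498). Of 18 T cell genes tested it was the 1 called in edgeR, against 0.309% of all genes, with 15 at an unadjusted p under 0.05 and 8 called by DESeq2. Without the pairing the calls of Cd68, Spp1, Lgals3bp and Cd247 were lost (edgeR adjusted p = 0.234, 0.128, 0.16 and 0.243), whereas that of Cfp was not (0.0301). The part of other cells in these differences was not tested.

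Interferon-stimulated genes were mostly a little higher in cKO cells, with no single call in edgeR. Of 40 such genes, 39 could be tested and 0 were called (edgeR, with 19 at an unadjusted p under 0.05 and 10 called by DESeq2). The fitted change was above 0 for 36 of the 39 and the median log2 fold change was 0.43, against 50.8% above 0 and a median of 0.0061 over all genes. On all 4 days 22 of the 39 were higher in cKO cells, against 12.9% of all genes tested. The list median was 0.67, 0.47, 0.13 and 0.60 log2 units on days 1 to 4, smallest on day 3, and it lay between 0.34 and 0.57 under the 15 other settings. The days had the same order in the macrophage genes, whose medians were 4.42, 1.54, 1.34 and 2.50 log2 units, and the part of macrophages in the interferon values was not tested. Members entered the test only with enough counts in 1 group, so these counts describe the list and do not test it.

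Irf7, the transcription factor that amplifies the interferon response, was 45.7, 64.5, 63.5 and 50.6 CPM in control libraries, against 72.6, 94.6, 71.2 and 105 CPM in the cKO libraries (log2 fold change 0.61, edgeR adjusted p = 0.142). Oasl2, of the oligoadenylate synthetase family that senses viral RNA, was 6.05, 5.17, 4.85 and 6.17 CPM in control libraries, against 12.5, 16.3, 8.91 and 16.8 CPM in the cKO libraries (1.26, edgeR adjusted p = 0.0633). Oas3, of the same family, was 1.34, 5.78, 8.55 and 5.59 CPM in control libraries, against 12.5, 17.4, 11.9 and 18.8 CPM in the cKO libraries (1.72, edgeR adjusted p = 0.143). All cKO libraries lay above all control libraries for each of them, and also for Cmpk2, Ddx58, Oas1a and Rtp4, a total of 7 of 39 against 3.38% of all genes.

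Interferon acts on such genes through short promoter elements built from GAAA repeats. The letters GAAA, any 2 bases and GAAA again, or TTTC spaced alike on the other strand, were searched in RefSeq windows of GRCm38.p6 from 250 bases before to 50 bases after each start, and copies could overlap. At least 1 copy was present for 15 of 27 list genes with a window (55.6%), against 3.99% of 27025 genes with a window. Such a share belongs to interferon-stimulated genes as a class, so it does not bear on their change in cKO cells. The stretches are shown for the members that were higher in cKO cells on all 4 days and had a copy before the start. They share these letters by that selection. Of the genes above without overlap between groups, Oas1a, Oas3 and Ddx58 had a copy in their window, whereas Irf7, Oasl2 and Cmpk2 had none. Rtp4 had no window. Capitals mark the matched letters, and a match is not evidence of binding.
Ifit1, chr19:34640785-34640813, plus strand: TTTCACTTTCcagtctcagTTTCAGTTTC
Oas1a, chr5:120907523-120907552, minus strand: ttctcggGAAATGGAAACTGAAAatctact
Oas3, chr5:120777715-120777744, minus strand: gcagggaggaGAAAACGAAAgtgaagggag
Slfn8, chr11:83020839-83020868, minus strand: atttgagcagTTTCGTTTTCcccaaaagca
Stat2, chr10:128270266-128270295, plus strand: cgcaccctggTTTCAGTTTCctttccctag
Trim30a, chr7:104465210-104465239, minus strand: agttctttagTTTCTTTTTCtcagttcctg

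Cytokine receptors were also mostly higher. Of 27 tested, 0 were called (edgeR, with 11 at an unadjusted p under 0.05 and 7 called by DESeq2). The fitted change was above 0 for 23, against 50.8% of all genes, and the median log2 fold change was 0.44. On all 4 days 11 were higher, against 12.9% of all genes tested. Members could enter the test through counts in 1 group alone, so these counts describe the list and do not test it. Il9r, the receptor chain for interleukin 9, was 5.33, 13.0, 4.09 and 6.39 CPM in control libraries, against 61.3, 38.8, 27.1 and 20.3 CPM in the cKO libraries. The groups did not overlap, and the log2 fold change of 2.36 ± 0.34 fell just short (edgeR adjusted p = 0.0545). Ifnar2, a chain of the type I interferon receptor, was 18.1 ± 0.905 against 31.8 ± 6.06 CPM (0.80 ± 0.13, edgeR adjusted p = 0.0695). Receptors that other cells also carry, such as Il2rb and Il7r, are in this list, and their libraries overlapped.

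Genes of the germinal centre programme were mostly a little lower. Of 25 tested, 19 were below 0 and the median log2 fold change was -0.23, between -0.24 and -0.19 under the 15 other settings. On all 4 days 13 of 25 were lower in cKO cells, against 10.9% of all genes tested. In edgeR 2 were called, the rises of Ikzf3 and Lmo2 given above, against 0.309% of all genes, with 16 at an unadjusted p under 0.05 and 11 called by DESeq2. Bcl6, the repressor that defines the germinal centre fate, was 279.6, 314, 336 and 329 CPM in control libraries, against 217, 266, 261 and 265 CPM in the cKO libraries (log2 fold change -0.32 ± 0.07, edgeR adjusted p = 0.12). Foxp1, a forkhead factor of B cell development, was 411, 383, 329 and 371 CPM in control libraries, against 313, 283, 186 and 249 CPM in the cKO libraries (-0.56 ± 0.09, edgeR adjusted p = 0.0688). Spib, an Ets family factor, was 849.5 ± 48.4 against 679.7 ± 29.0 CPM (-0.32 ± 0.08, edgeR adjusted p = 0.141). All 3 had groups without overlap, as did Pou2f2, Rgs13 and Id3, which makes 6 of 25 against 3.31% of all genes. In edgeR with pairing 0 of these 6 passed, whereas DESeq2 with pairing called them all, Bcl6 with an adjusted p of 0.000446 and Spib with 0.0027.

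**Figure D5:**
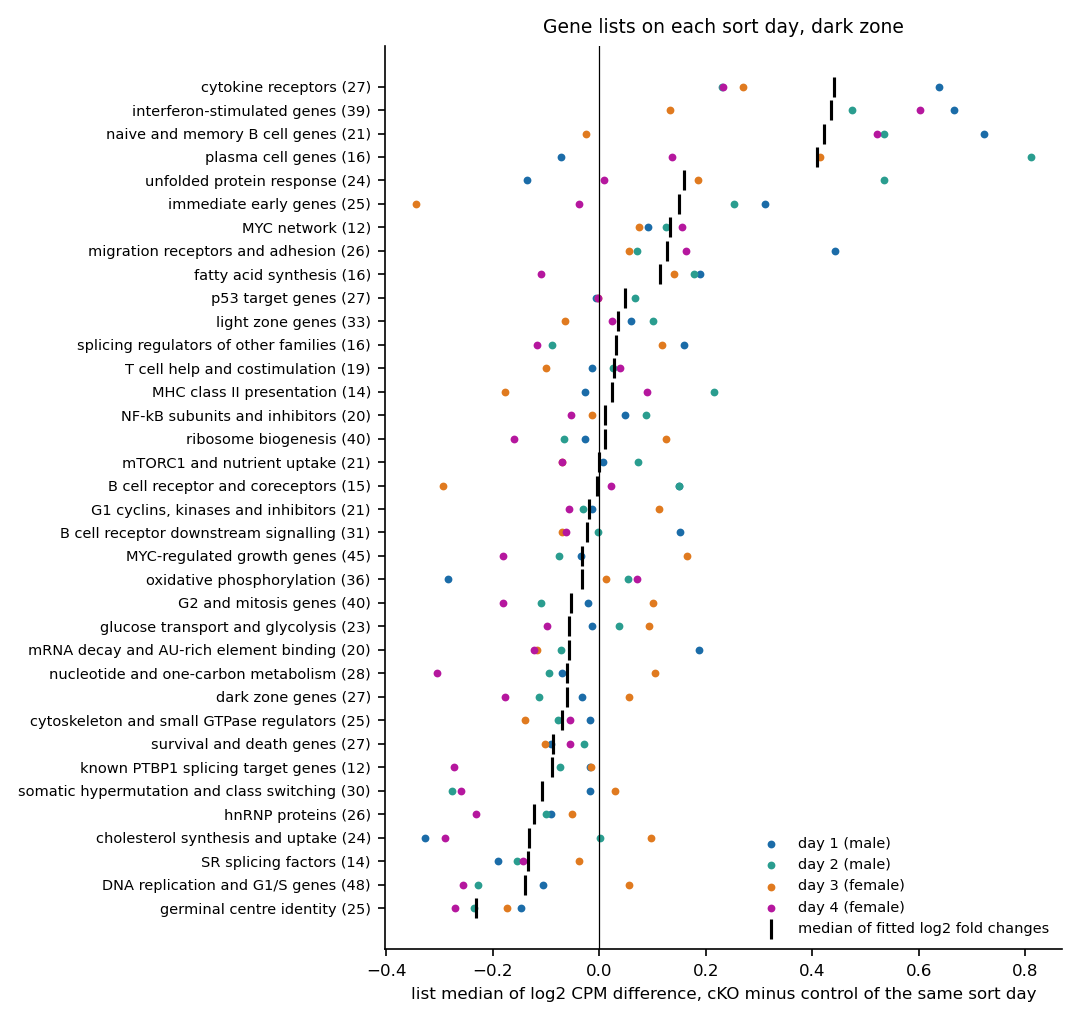
Median over the tested members of each gene list of the log2 CPM difference between the cKO and control library of 1 sort day (points, horizontal axis), with the median of the fitted log2 fold changes as a black tick. Numbers in brackets are members tested. Interferon-stimulated genes, cytokine receptors, migration receptors and the MYC network lie above 0 on all 4 days. Below 0 on all 4 days lie germinal centre identity, SR, hnRNP, known PTBP1 splicing target, survival and death, and cytoskeleton genes.

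Genes of the dark zone programme itself went both ways. Of 27 tested, 0 were called (edgeR, with 7 at an unadjusted p under 0.05 and 1 called by DESeq2) and the median log2 fold change was -0.061. Fitted values ran from -2.96 for Fzd6 to 4.93 for Ednrb, both with group means of under 4 CPM. On all 4 days 6 of 27 were lower and 1 was higher, against 10.9% and 12.9% of all genes tested. The groups did not overlap for 2, Fzd6 and the uracil glycosylase gene Ung, both lower, against 3.31% of all genes. The 48 genes of DNA replication had a median of -0.14 with 42 below 0, and 0 were called (edgeR, with 8 at an unadjusted p under 0.05 and 0 called by DESeq2). Their sign was not the same on each day, with medians of -0.10, -0.23, 0.056 and -0.25 on days 1 to 4. For 40 genes of the G2 phase and mitosis the median was -0.052, and for 45 MYC-regulated growth genes it was -0.032. In edgeR 0 genes of both lists were called, with 5 and 3 at an unadjusted p under 0.05 and 1 and 0 called by DESeq2. Over all 14550 genes tested, 2104 had an unadjusted p under 0.05 and DESeq2 called 927. Myc itself was 54.1, 61.1, 59.8 and 48.3 CPM in control libraries, against 79.4, 67.1, 76.5 and 49.1 CPM in the cKO libraries, overlapping between groups (log2 fold change 0.27 ± 0.11, edgeR adjusted p = 0.346).

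Genes of the SR and hnRNP families, which bind RNA and steer splicing, were mostly slightly lower. In a further list of splicing regulators, Ptbp1 among them, 10 of 16 were above 0 and the median log2 fold change was 0.031. All 14 SR splicing factors had fitted changes below 0, from -0.27 to -0.035, with a median of -0.13 that kept its sign under 15 of 15 other settings. Of 26 hnRNP genes, 24 were below 0, with a median of -0.12. In edgeR 0 genes of either family were called, with 3 SR and 9 hnRNP genes at an unadjusted p under 0.05 and 1 and 2 called by DESeq2. The totals over all 14550 genes were 2104 and 927. Among 12 genes whose splicing PTBP1 is known to control, Ptbp2 was the 1 called in edgeR, against 0.309% of all genes, with 6 at an unadjusted p under 0.05 and 3 called by DESeq2. Celf2, a splicing regulator of another family, was 222 ± 29.0 against 278 ± 14.3 CPM without overlap (log2 fold change 0.33 ± 0.08, edgeR adjusted p = 0.136).

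In the light zone, sorted from the same pools of mice, 763 of 14472 genes were called (5.27%) under the same paired fit, 418 higher and 345 lower. Of the 45 dark zone calls, 35 were among those 763, and 42 had the same direction there. Both zones of a pool share their mice, so these are not independent repeats. The difference between zones was tested within pools over 15789 genes, and 0 passed (edgeR, with 1013 at an unadjusted p under 0.05), so no call can be said to belong to 1 zone. Slc28a2, Cr2 and Zeb2 are given as examples with a low unadjusted p. The log2 fold change of Slc28a2 was -0.68 in the dark and -0.22 in the light zone (edgeR interaction test, adjusted p = 0.467). For Cr2 it was -1.20 and -0.58 (edgeR adjusted p = 0.467), and for Zeb2 1.68 and 0.44 (edgeR adjusted p = 0.687). For Ikzf3 it was 1.03 and 1.25 and for Ptbp2 3.73 and 3.60, with edgeR interaction adjusted p of 0.742 and 0.965. In males against females the change differed for 0 of 14550 genes (edgeR, with 312 at an unadjusted p under 0.05).

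PTBP1 crosslink sites were mapped by iCLIP, which marks the nucleotide where a protein was crosslinked to RNA, in 5 libraries of splenic B cells cultured with lipopolysaccharide for 48 h. Those cells are not germinal centre cells, and the sites are those the authors called. In the authors' list on summed replicates, sites within the RefSeq gene body were present for 13 of 32 called-higher genes (40.6%) and 7 of 12 called-lower genes (58.3%), against 48.7% of 13635 tested genes with coordinates. Sites in at least 3 replicate lists were present for 6 of 32 (18.8%) and 4 of 12 (33.3%), against 12.2%. The sets differ in what limits detection, since median gene length was 12.8, 26.4 and 18.7 kb and the median control level 12.3, 115 and 21.6 CPM in the called-higher, called-lower and all tested genes.

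Among the risen genes, Zeb2 (chr2:44983512-45117442) held 950 sites with 1620 cDNAs and Ikzf3 (chr11:98464610-98546031) 267 sites with 404 cDNAs, the former in 5 and the latter in 4 of the 5 replicate lists. Itga4 (chr2:79255426-79333114) held 180 sites and Ptbp2 (chr3:119718741-119784647) 138 sites, both in 5 replicate lists, and Lmo2 (chr2:103957903-103981878) held 71 sites in 4. Among the fallen genes, Cd2ap (chr17:42748887-42876707) held 44 sites, Cr2 (chr1:195136811-195176880) 28, Ptbp1 (chr10:79854432-79864435) 26 and Cd79a (chr7:24897497-24901858) 21. Ptbp3 (chr4:59471868-59549378), which was not called, held 184 sites. Abcb4, Ppfia4, Fscn1, Rasa4, Slc43a1 and Fah held 0 sites. Their RNA level in the cultured cells was not analysed here, and an absent site in a gene of low level carries little information. Coordinates are those of the gene in RefSeq GRCm38.p6.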

How the data were processed

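RNA was measured by sequencing of SMART-Seq v4 libraries made from 2 ng of RNA of sorted cells, per the labels' protocols. Per the submitters' processing notes, tools used were Trim Galore 0.4.2, HISAT2, HTSeq and, for iCLIP, Bowtie, with build GRCm38. Neither the annotation release nor strandedness of counting is stated, nor are other versions. The authors deposited raw read counts per gene for 47729 identifiers, of which 47224 matched a symbol. The 5 summary lines per file (reads assigned to no gene), 42.0% to 47.6% of each dark zone file, were left out. The iCLIP lists deposited by the authors hold a signed cDNA count as the score of each site, and the sign gives the strand. Sites were counted on both strands of a gene, because many RefSeq entries carry no strand.

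The 8 dark zone libraries were fitted with edgeR 4.0.16 (R 4.3.3) by its quasi-likelihood test, two-sided, with TMM scaling, a minimum count of 10 in filterByExpr, sort day as a block and BH adjustment at 0.05. The light zone was fitted alike, and the zone difference over 16 libraries with the pool of mice as a block. Daily log2 differences used a pseudocount of 0.1 CPM. The labels tie a replicate number to a shared sort day, and same-numbered libraries deviated together from their group means (correlations 0.158 to 0.414). However, cKO library 1 correlated more with control library 2 (0.229) than with control library 1 (0.158). Libraries of a group differed by far more than sampling noise (chi-square per degree of freedom 38.8 to 183), so none was a repeat of another. The fit had 3 residual degrees of freedom and a common biological coefficient of variation of 28.8%.

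Named genes were the 20 largest rises and falls among calls with an average log2 CPM of at least 3 and 1 direction on 4 days, the 10 largest changes above 100 CPM, the 10 smallest adjusted p, called members of the gene lists, and Ptbp1, Ptbp2, Ptbp3, Cd79a and Myc. Members of lists and other genes without a call are printed as examples chosen after their values were seen. Genes without symbol, immunoglobulin segments and predicted genes were counted but not described. The libraries compared and the gene lists were chosen with earlier results of these data known. Alternatives were another block, all 16 libraries, DESeq2 1.42.0, other scalings and filters, single sexes and each day left out.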

Additional observations from a re-analysis of the deposited data

Results flagged for a closer look

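In 16 of 132 groups of 4 libraries, 1 library stood apart from the other 3, with a gap to its nearest neighbour above Dixon's critical value as a share of the group's range. Chance gives about 1 in 20 such groups. In control libraries this held for Ighe (gap 0.935 of the range), Igha (0.873), Ighg1 (0.889), Sdc1 (0.851) and Jchain (0.909), each highest on day 3. It held there also for Lyz2 (0.945), the macrophage sum (0.923) and the T cell sum (0.847), for Zeb2 (0.923) and for Cd2ap (0.879), whose day 1 library was lowest. In cKO libraries it held for Ptbp2 (0.876), Ppl (0.844), Cd68 (0.847), Bcl6 (0.887), the neutrophil sum (0.945) and the erythroid sum (0.854). For the immunoglobulin genes Igkv1-133, Igha, Ighg2c and Ighv1-15 the fitted change went in opposite directions in the 2 zones. The dark minus light zone difference was 2.58 log2 units for Igkv1-133, 2.53 for Igha, 2.04 for Ighg2c and 3.00 for Ighv1-15. When tested, none of them passed (edgeR interaction adjusted p = 0.14, 0.687, 0.682 and 0.687).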

How the results depend on the processing

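The counts of called genes depended on the fit, while all 45 called genes that could be tested kept their direction under each of the 15 alternatives. Without the replicate block 29 genes were higher and 23 lower, and 22 of the 45 were called again. With all 16 libraries the counts were 49 and 50 without the replicate block, and 300 and 217 with it. DESeq2 with the block called 654 higher and 273 lower, among them all 45. Upper-quartile scaling gave 50 and 18, no filter on low counts 76 and 30, and at least 50 counts in every library of a group 177 and 82. RLE scaling gave 30 and 11, and leaving out immunoglobulin genes 38 and 11. Without day 1, 2, 3 or 4, the calls ranged from 1 to 8 higher and from 1 to 4 lower (day 1: 4 and 1, day 2: 8 and 4, day 3: 4 and 2, day 4: 1 and 1). In males or females alone, fitted without the replicate block, 0 genes were higher and 0 lower. The cause of these shifts was not tested, except that fewer libraries leave fewer degrees of freedom. The zone difference had 0 calls with the pool, the sort day or no replicate block. Cd79a lost its call without day 1 (edgeR adjusted p = 0.0714) and day 4 (0.147), and Ikzf3 and Abcb4 lost theirs without day 4 (0.0837 each). Of 37 programme list medians, 13 changed sign under an alternative, 4 of them under another scaling. Libraries stem from pools of mice, so the spread covers pools and days, not single animals, and with 3 residual degrees of freedom small changes could not be resolved.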
